A study of Mus musculus with 30 samples.

Results

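H3K27ac was compared between ER-Hoxa9-Lys-GFP cells that had lost estradiol (E2) for 24 h and cells that had lost it for 40 h, with E2 restored in both before collection. The comparison used 2 of the 30 samples of the series, 1 library a side. It took every peak of the 2 deposited lists, 65636 in all, with 36845 peaks at 24 h and 28791 at 40 h, out of 173508 peaks in the 6 H3K27ac lists of the same cells. A peak was called shared if a peak of the other list overlapped it by at least 1 bp, and otherwise counted as present in a single list.

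The cells are mouse (C57BL/6) cells grown in medium conditioned with stem cell factor, and all carry HOXA9 fused to the estrogen receptor (ER-Hoxa9). Lys-GFP denotes a green fluorescent reporter of the lysozyme gene, which is switched on as myeloid cells mature. The 24 h group was kept without E2 for 24 h and then with E2 for 96 h. The 40 h group was kept without E2 for 40 h and then with E2 for 80 h. Longer withdrawal therefore came with shorter restoration, and their effects cannot be told apart. The other H3K27ac lists came from cells in E2 throughout, from cells without E2 for 56 h and 72 h that then had 64 h and 48 h of restored E2, and from cells without E2 for 120 h. Times below give the length of withdrawal. No source used here says whether the line is 1 clone or whether cultures were pooled, and the identity of the cells could not be checked on marker genes, since no gene annotation of the build of these lists was at hand.

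HOXA9 is a homeodomain factor that holds myeloid progenitors in a dividing state, and the receptor domain keeps the fusion protein inactive without E2. Removing E2 lets the cells mature towards granulocytes and monocytes, and adding it back asks whether they can return. H3K27ac, acetylation of lysine 27 on histone H3, marks active promoters and enhancers. H3K27me3 is placed on the same lysine by Polycomb repressive complex 2, so a histone tail can carry only one of these marks.

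The 24 h list was the longer by 1.28 times in peak number and by 1.38 times in covered length (14.7 Mb against 10.6 Mb). Median peak width was 313 bp (interquartile range 206 to 497) at 24 h and 295 bp (200 to 455) at 40 h, and no peak of either list was narrower than 146 bp. Over the other lists, peak numbers ran from 6356 at 56 h to 48710 at 120 h, with 27876 in E2 and 24930 at 72 h. The 56 h list stood apart by its length, so presence at 56 h is given as a value only. How deeply each library was sequenced is not given in the sources used here, and the part of depth in the differences below was not tested. Intervals are 95% intervals, exact (Clopper-Pearson) for a share and Newcombe's for a difference. They cover only the error of counting peaks, neighbouring peaks are not independent, and with 1 library a side no p-value is given.

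Most of the acetylation called at 40 h was also called at 24 h, whereas the 24 h list held a large additional set of narrow peaks. Of the 24 h peaks, 12471 had no 40 h peak (33.8%, 33.4 to 34.3), and of the 40 h peaks 3170 had no 24 h peak (11.0%, 10.7 to 11.4). With the lists longer than the 40 h list (24 h and 120 h) cut to their 28791 widest peaks, called equal length below, 6978 and 5408 peaks were unshared, a ratio of 1.29 against 3.93 in the full lists. The 33.8% and 11.0% are also the background for every later count of such peaks. By length, 9.04 Mb lay in both lists, which was 61.5% of the 24 h length and 85.1% of the 40 h length. The excess at 24 h was spread over the genome. The share of 24 h peaks without a 40 h peak ran from 29.9% on chromosome 5 to 37.3% on chromosome 13. The reverse share ran from 8.67% on chromosome 5 to 16.7% on chromosome X, and on each of the 20 chromosomes it was the smaller one.

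Peaks of a single list were narrow and often close to a peak of the other list. Their median width was 208 bp at 24 h and 183 bp at 40 h, against 397 and 317 bp for the shared peaks of the same lists. They made up 20.7% of the covered length at 24 h and 6.15% at 40 h. Of the 24 h peaks under 200 bp, 67.7% (66.7 to 68.7) had no 40 h peak, and among the 1426 peaks of 1000 bp or more 3 had none. At 40 h, 26.5% (25.5 to 27.6) of peaks under 200 bp had no 24 h peak, and of the 744 peaks of 1000 bp or more 0 had none, which allows a share of up to 0.495%. Peaks of 1000 bp or more in either list were thus nearly all overlapped by a peak of the other. A wide peak meets the 1 bp rule more readily, and the overlap can cover a small part of it. A 40 h peak lay within 1 kb of 6547 of the 24 h-only peaks (52.5%), and a 24 h peak within 1 kb of 2091 of the 40 h-only peaks (66.0%). At more than 10 kb from the other list lay 3298 peaks of the 24 h list (26.4% of its unshared peaks) and 581 of the 40 h list (18.3%).

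**Figure D1:**
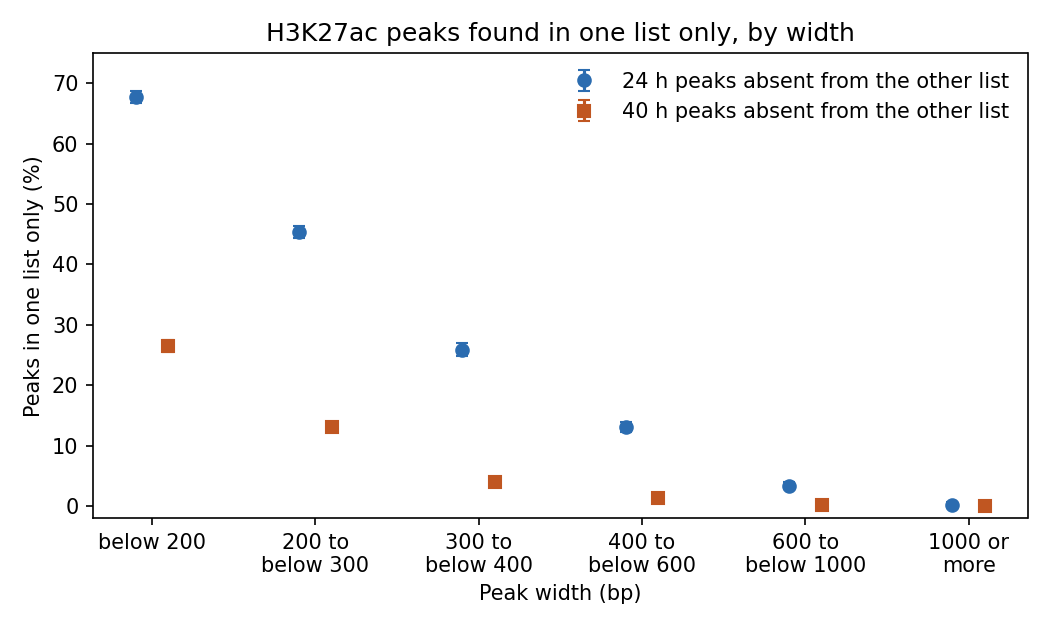
Share of peaks (y axis, %) that had no peak in the other list, by peak width in bp (x axis), for the 24 h list (circles) and the 40 h list (squares), with 95% exact intervals. Both shares fall with width, from 67.7% and 26.5% under 200 bp to 3 of 1426 and 0 of 744 peaks at 1000 bp or more, and the 24 h share is the higher in each width class.

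The same shares were computed for other lists and marks. For H3K27me3 in the same cells the shares were further apart: 40.1% (38.7 to 41.4) of 5125 peaks at 24 h had no 40 h peak and 8.43% (7.57 to 9.35) of 3845 peaks at 40 h had no 24 h peak. For H3K4me3, a mark of active promoters, the shares were 13.8% of 22871 and 12.4% of 21329 peaks. H3K27me3 peaks (medians 1065 and 976 bp) and H3K4me3 peaks (506 and 577 bp, none under 200 bp) were wider than H3K27ac peaks. The shares of different marks are therefore not on a common scale. Against the E2 list, 41.5% of 24 h and 35.2% of 40 h H3K27ac peaks had no partner, and against the 72 h list 50.4% and 40.3%. Compared in the other direction, 25.4% of E2 peaks were missing at 24 h and 37.2% at 40 h, and 21.8% of 72 h peaks were missing at 24 h and 28.9% at 40 h.

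Where the same element was acetylated in both groups, it covered less sequence at 40 h. Overlapping peaks were joined into 39050 loci, of which 23409 held a peak of each list. At 24 h they covered 414 bp (median) and at 40 h 343 bp. The log2 ratio of the 40 h to the 24 h length had a median of -0.17 (interquartile range -0.49 to 0.05), and 69.2% of loci were narrower at 40 h. The median was below 0 on all 20 chromosomes, from -0.20 to -0.12. At least 2-fold narrower were 1917 loci (8.19%) and at least 2-fold wider 252 (1.08%). A single 24 h peak was broken into several at 40 h in 1798 loci (7.68%), and the reverse was seen in 698 (2.98%).

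This narrowing was of similar size in every class of element. Loci with a peak in E2 and none at 120 h had a median log2 ratio of -0.20 (n = 3571), those with a peak at 120 h and none in E2 -0.15 (n = 3442), those with both -0.17 (n = 13218) and those with neither -0.14 (n = 3178). The interquartile ranges overlapped almost fully, from -0.55 to 0.06 in the first class and from -0.53 to 0.13 in the second. By chromosome the medians of the first class lay between -0.34 and -0.11, and those of the second between -0.23 and 0.05, above 0 on 1 chromosome.

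Single loci went beyond this shift. The largest loss of covered length among shared loci was at chr3:137633699-137635815, with 2117 bp at 24 h, 295 bp at 40 h, 148 bp at 56 h, 146 bp in E2 and 0 bp at 72 and 120 h. It was thus wide at 24 h alone. At chr7:109395865-109398575 the length was 2711 bp at 24 h and 1130 bp at 40 h, but 1824 bp at 72 h and 2711 bp at 120 h, with 579 bp in E2 and none at 56 h. At chr7:103600265-103601591 it was 1327 bp at 24 h, against 167 bp at 40 h, with 146 bp in the 56 h list and 0 bp in the rest. The largest gain at 40 h was at chr11:102170583-102172198, with 1608 bp against 878 bp at 24 h. Of that locus the E2 list covered 1616 bp, the 72 h list 457 bp, the 120 h list 154 bp and the 56 h list none, so that the 40 h list was closer to E2 than the 24 h list was. At chr6:54113097-54114038 the 40 h length was 942 bp, as at 120 h, against 233 bp at 24 h, 149 bp in E2 and 587 bp at 72 h. The other 4 loci with the largest gains were 699 to 985 bp wide, and 2 of them had a peak in E2. Of the other 3 losses, chr2:84777382-84779086 had 1705 bp covered at 24 h and 513 bp at 40 h, and chr9:40262175-40264161 had 1987 and 821 bp. The last of them, on chromosome 13, was acetylated only in restored cells and is given with such loci.

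The 2 sets of unshared peaks were then looked up in the lists that had no part in choosing them. More 24 h-only than 40 h-only peaks were present in E2, and fewer were present at 72 h. In E2 the shares were 35.2% (34.4 to 36.1) and 27.6% (26.1 to 29.2), a difference of 7.62 points (5.83 to 9.36) in the same direction on 20 of 20 chromosomes. At 72 h they were 18.8% (18.1 to 19.5) and 23.2% (21.7 to 24.7), a difference of -4.37 points (-6.01 to -2.77), with the 24 h-only share the higher on 4 of 20 chromosomes. Both directions were the same within each of 4 width classes. At widths from 300 to below 400 bp the E2 difference was 1.01 points (-6.24 to 7.89), while at 72 h the difference lay between -5.26 and -13.7 points in the 4 classes. At equal length the E2 shares came closer, 38.9% and 36.0%, and the 72 h shares were 22.1% and 28.7%.

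At 120 h the shares were 42.4% and 38.1%, a difference of 4.29 points (2.38 to 6.18). This one did not hold for peaks over 1 kb from the other list, where 40.2% of 5924 and 42.3% of 1079 peaks were present at 120 h (-2.09 points, -5.30 to 1.09). For the same distant peaks the differences were 3.59 points (0.58 to 6.47) in E2 and -8.39 (-11.3 to -5.68) at 72 h. At 56 h, 5.19% of the 24 h-only and 4.26% of the 40 h-only peaks were present. No peak in any of these 4 lists was found for 4702 of the 24 h-only peaks (37.7%) and 1281 of the 40 h-only peaks (40.4%), against 8.88% and 9.26% of the shared peaks. The shared peaks were alike in all lists, with 70.4% and 69.4% present in E2 and 65.3% and 64.3% at 72 h.

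**Figure D2:**
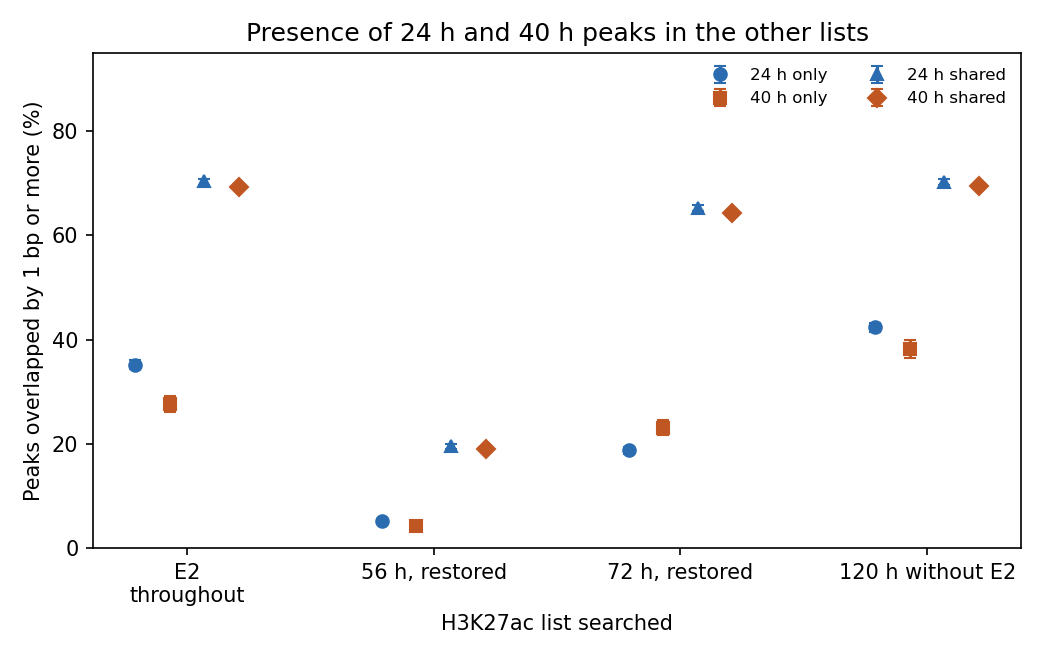
Share of peaks (y axis, %) overlapped by a peak of each H3K27ac list not used to define them (x axis), for peaks of the 24 h or the 40 h list only (circles, squares) and for shared peaks as listed at 24 h or 40 h (triangles, diamonds), with 95% exact intervals. In E2 the 24 h-only share is the higher (35.2% against 27.6%), at 72 h the 40 h-only share (23.2% against 18.8%), and shared peaks lie above both throughout.

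The next question was how many of the peaks listed in only one of E2 and 120 h each restored list held. E2 peaks with no partner at 120 h numbered 10148, and 120 h peaks with no partner in E2 numbered 31960. Below, the first set is called the progenitor state and the second the matured state. These are names for list membership, as no marker was checked. How far the longer 120 h list (48710 peaks against 27876 in E2) sets the size of the second set was not tested. The first set was found at 24 h in 54.9% of cases (53.9 to 55.8) and at 40 h in 40.3% (39.3 to 41.2). The second was found in 18.9% (18.5 to 19.3) and 13.3% (13.0 to 13.7). Of the 17728 E2 peaks also present at 120 h, 85.9% and 75.6% were found. The 24 h share was the higher on all 20 chromosomes in each of these 3 classes.

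As the 24 h list was longer throughout, the peaks found in just one of the 2 restored lists were counted in each class. Among the E2 peaks absent at 120 h, 1884 were found at 24 h and not at 40 h and 404 the other way, a ratio of 4.66 (4.19 to 5.21). Among the 120 h peaks absent in E2 the counts were 2435 and 658, a ratio of 3.70 (3.39 to 4.04). Among E2 peaks also present at 120 h they were 2214 and 384, a ratio of 5.77 (5.17 to 6.44). The ratio for E2 peaks absent at 120 h was above that for 120 h peaks absent in E2 on 14 of 20 chromosomes. At equal length of the 24, 40 and 120 h lists, with the shorter E2 list left whole, the ratios came to 1.52 and 1.56, and this order was lost. With only the 24 h list shortened they were 1.77 and 1.39.

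**Figure D3:**
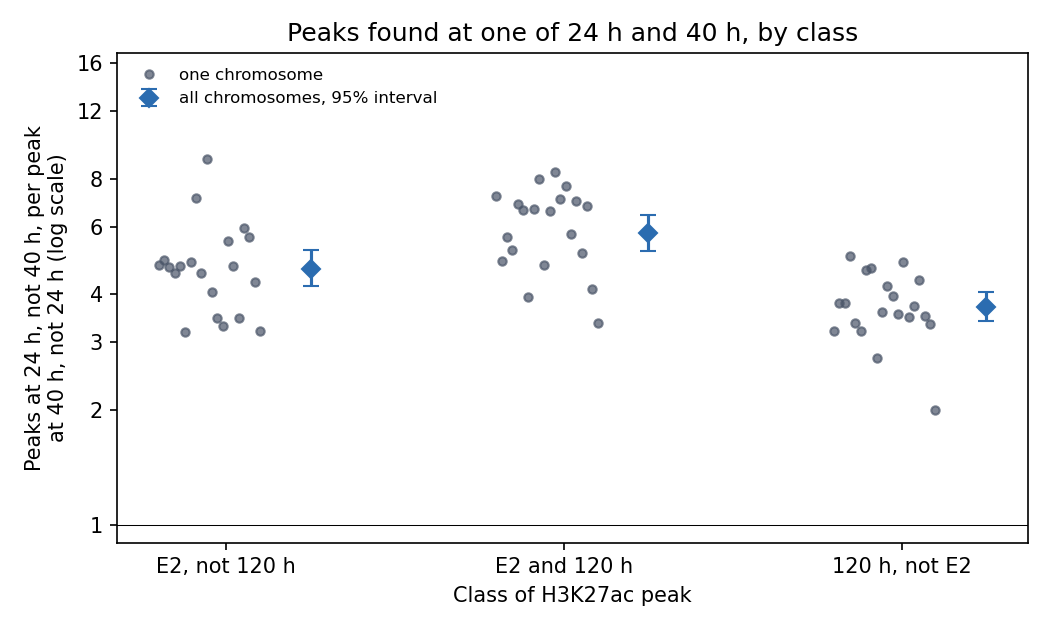
Number of peaks found at 24 h and not at 40 h, divided by the number found at 40 h and not at 24 h (y axis, log scale), for 3 classes of reference peak (x axis). Grey points are the 20 chromosomes and diamonds the ratio over all chromosomes with its 95% interval. All chromosomes lie above 1, and the overall ratio is 4.66, 5.77 and 3.70 from left to right.

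Peaks of the matured state that were listed at 40 h and not at 24 h were more often also listed at 72 h. Of the 658 such peaks 47.1% (43.2 to 51.0) were present at 72 h, against 35.7% (33.8 to 37.7) of the 2435 found at 24 h and not at 40 h. The difference was 11.4 points (7.14 to 15.6) and had this sign on 16 of 20 chromosomes. It had the same sign in all 5 other settings tried for overlap, list length and width, with 60.7% against 44.9% at equal list length. The median widths of these 120 h peaks were 291.5 bp and 307 bp. In the short 56 h list the order was the other way, with 6.53% and 9.90%. For comparison, 70.1% of 120 h peaks found at both 24 and 40 h were present at 72 h, and 10.8% of those found at neither.

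Peaks of the progenitor state that were listed at 24 h and not at 40 h were seldom listed at 72 h. Of these 1884 peaks 116 were present at 72 h (6.16%, 5.11 to 7.34), against 8.66% (6.11 to 11.8) of the 404 found at 40 h and not at 24 h, a difference whose interval held 0 (-0.14 to 5.81). The share of peaks found at 40 h and not at 24 h was the higher on only 9 of 20 chromosomes. Over all chromosomes the sign was the same in the 5 other settings, which reuse the same lists. The shares were 10.8% against 20.1% at equal length and 6.91% against 11.8% with only the 24 h list shortened. Of the 3684 found at both times 34.5% were present at 72 h. The 3 sets also differed in the width of their E2 peaks, with medians of 245, 224.5 and 315 bp.

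H3K27me3 was rare at H3K27ac peaks of either list, and at progenitor-state peaks its share was higher in the 72 and 120 h lists than in the 24 and 40 h lists. Of the 24 h-only peaks 27 of 12471 (0.217%) were overlapped by H3K27me3 at 24 h, and of the 40 h-only peaks 1 of 3170 (0.0315%) at 40 h. Among shared peaks of the 24 h list 13 of 24374 (0.0533%) were overlapped at 24 h. Of the E2 peaks absent at 120 h, those found at 24 h and not at 40 h were overlapped by H3K27me3 in 0.690% of cases at 24 h, 0.902% at 40 h, 2.71% (2.02 to 3.54) at 72 h and 5.63% (4.63 to 6.76) at 120 h. For those found at both 24 and 40 h the shares were 0.163% at 24 h, 0.217% at 40 h, 1.17% (0.85 to 1.57) at 72 h and 3.72% (3.13 to 4.38) at 120 h. The 404 found at 40 h and not at 24 h had 0% at 24 and 40 h, 0.990% at 72 h and 2.23% at 120 h. At the E2 peaks found at neither time the share was higher at 24 h, 1.32%, and was 5.65% at 120 h. All these peaks were chosen for having no H3K27ac at 120 h, which by itself favours H3K27me3 there. E2 peaks also present at 120 h had 0.284% at 120 h when found at both 24 and 40 h. Those found at 24 h and not at 40 h had 0.678%. The H3K27me3 lists themselves held 5125, 3845, 5166 and 6927 peaks at 24, 40, 72 and 120 h, and covered 9.10, 6.08, 8.06 and 12.9 Mb. The share that randomly placed peaks would reach with lists of this length was not computed. Whether the shares above lie below such a background was therefore not tested.

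The widest 24 h peak without a 40 h peak carried the acetyl mark in E2 and at 24 h, and the methyl mark at 72 and 120 h. It lay at chr8:35871753-35873219 (mm9) and its 1467 bp were fully acetylated in E2 and at 24 h and bare of H3K27ac at 40, 56, 72 and 120 h. H3K27me3 covered 0 bp of it in E2, at 24 h and at 40 h, and all 1467 bp at 72 and 120 h. At 40 h the region thus had neither mark listed. The nearest 40 h peak was 952 bp away. None of the other 7 widest 24 h-only peaks had H3K27me3 in any list.

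Those 7 peaks were present at 120 h without exception. At chr7:146100005-146101142 the covered length was 325 bp in E2, 1138 bp at 24 h, 0 bp at 40, 56 and 72 h and 385 bp at 120 h. The nearest 40 h peak was 9803 bp away. At chr4:125787161-125788164 the E2 list covered 138 bp and the 24 h list 1004 bp. The 40 h list had none, and the 56, 72 and 120 h lists covered 240, 745 and 1004 bp. The 40 h list therefore lacked an element held by the 24 h list and by each of the 3 lists with longer withdrawal. A 40 h peak lay 202 bp away. The rest were chr6:133991441-133992413, chr9:64100408-64101374, chr17:35950344-35951259, chr17:71533385-71534288 and chr5:136179076-136179972, each 897 to 973 bp wide. Of these 5, chr17:35950344-35951259 and chr5:136179076-136179972 had peaks at 72 h (609 and 500 bp).

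The widest 40 h peaks without a 24 h peak were narrower, from 558 to 850 bp. The widest, chr3:9401809-9402658, and the next, chr15:63481638-63482425 (788 bp), had no H3K27ac in any of the other 5 lists, with 24 h peaks 450 and 277 bp away. At chr2:102812240-102812976 the 737 bp of 40 h were covered over 371 bp at 72 h and 203 bp at 120 h and not in E2 or at 56 h. At chr9:7252297-7252918 (622 bp) the 72 h list covered 224 bp, and E2, 56 h and 120 h had none. This peak lay 30030 bp from the nearest 24 h peak. At chr2:167565683-167566240 all 558 bp were covered at 120 h as well, with 361 bp in E2 and 85 bp at 72 h. Of the 8 peaks 4 were present in E2, 0 at 56 h, 4 at 72 h and 4 at 120 h.

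**Figure D4:**
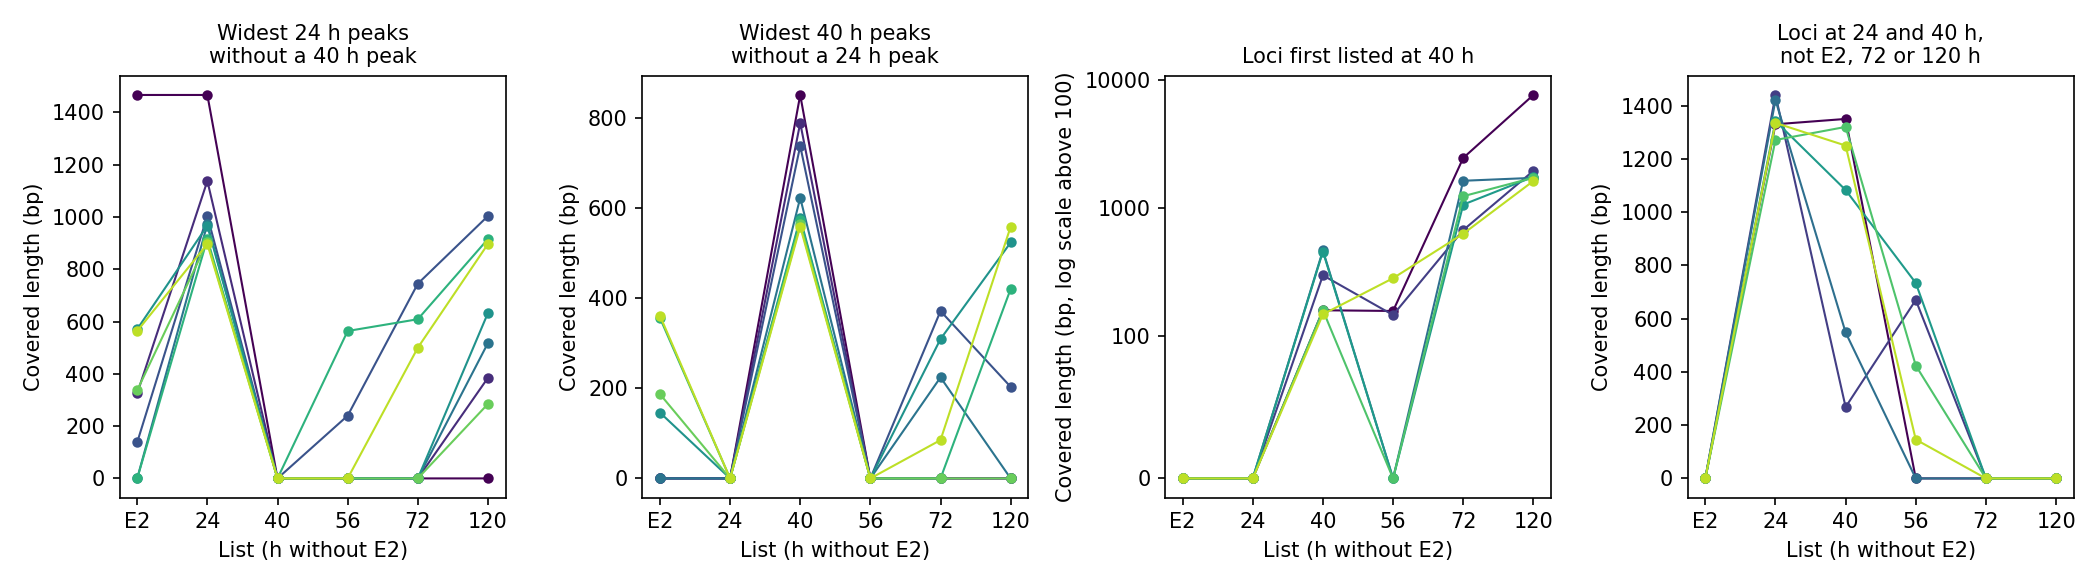
Length covered by H3K27ac peaks (y axis, bp) in each list (x axis, E2 throughout or hours without E2) at the 8 widest 24 h peaks without a 40 h peak, the 8 widest 40 h peaks without a 24 h peak, the 6 widest loci listed at 40, 72 and 120 h but not in E2 or at 24 h (log scale above 100 bp), and the 6 widest loci listed at 24 and 40 h but not in E2, 72 or 120 h. Each line is 1 region. In the third panel, whose loci were chosen by a width that the 120 h list mostly sets, the covered length runs from at most 466 bp at 40 h to at least 1624 bp at 120 h.

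The E2, 24, 40, 72 and 120 h lists were then joined into 66872 loci and put in order of withdrawal. They come from separately treated cells, not from successive times of the same cells. Loci were sought whose presence changed once along this order, between 24 and 40 h. Of the 66872 loci, 1553 were present in E2 and at 24 h and absent at 40, 72 and 120 h. Absent in E2 and at 24 h and present at 40, 72 and 120 h were 278. Single losses between E2 and 24 h, 40 and 72 h, and 72 and 120 h numbered 4122, 2104 and 1174. Single gains at the same steps numbered 2182, 2622 and 22529. The step from 24 to 40 h thus held the fewest gains, and its losses were neither the most nor the fewest. Patterns out of order show how often a single list differs by itself: 632 loci were missing at 40 h alone and 120 at 24 h alone of the 5 lists, and 330 were present in E2 and at 40 h only. Found at 24 h alone were 4902 loci, and at 40 h alone 1325. With only the 24 h list shortened to the length of the 40 h list, ordered losses numbered 989 and ordered gains 506. In the full lists the 278 ordered gains were fewer than the 805 loci present at 24, 72 and 120 h and absent in E2 and at 40 h, which is the same course broken at 40 h.

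Of the ordered losses, the widest was chr17:8627885-8629141, with 697 bp in E2, 930 bp at 24 h and none in the lists with longer withdrawal. At chr11:87590960-87592068 the E2 list covered 1109 bp and the 24 h list 872 bp, and at chr14:8650557-8651631 they covered 964 and 860 bp, with the nearest 40 h peak 69301 bp away. At chr2:34478080-34479317 the 24 h list covered only a small part of the length, with 1238 bp in E2 and 168 bp at 24 h. A 40 h peak lay close to these loci on chromosomes 17, 11 and 2, at 888, 921 and 685 bp. None of the 6 widest loci of this kind had H3K27me3 in any list.

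Of the ordered gains, the 6 with the widest joined locus are described. That width was set by the 120 h peak in most of them, so a small length at 40 h beside that at 120 h follows from the choice. At chr15:31278796-31280744 the 40 h list covered 298 bp, the 56 h list 146 bp, the 72 h list 672 bp and the 120 h list 1949 bp. At chr16:87611007-87612914 the same 4 lists covered 466, 0, 1630 and 1718 bp, and at chr2:29626012-29627761 they covered 457, 0, 1062 and 1750 bp. No peak was listed at these 3 in E2 or at 24 h, and the 24 h peak nearest to them lay 16047, 12260 and 276 bp away. At chr7:149576420-149584039, the widest, the 40, 72 and 120 h lists covered 159, 2457 and 7620 bp, and a 24 h peak lay 164 bp away.

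A further set of loci was acetylated at both 24 and 40 h and in neither reference state, and was picked out after its size was seen. It held 3134 loci, of which 784 were present at 72 h too and 2350 were not. Median covered length over the 3134 loci was 298 bp at 24 h and 255 bp at 40 h, and 22.4% of them were also in the 56 h list. Within them this share was 18.8% for the 2350 loci absent at 72 h and 33.4% for the 784 present there. It was 17.5% for the 10160 loci present in all of the E2, 24, 40, 72 and 120 h lists. For the 2104 loci present in E2 and at 24 and 40 h only, it was 17.7%. Of the 3603 peaks at 120 h that were absent in E2 and found at both 24 and 40 h, 39.5% were in the 56 h list. The 6 widest of the 2350 loci were looked at singly. The widest, chr11:18783871-18785352, was covered over 1330 bp in the 24 h list and 1350 bp in the 40 h list, and had no peak in E2 or at 56, 72 and 120 h. At chr14:76385281-76386668 the 24, 40 and 56 h lists covered 1271, 1320 and 424 bp. At chr8:27798866-27800242 it was 1335, 1250 and 146 bp, and at chr14:66518233-66519626 1342, 1083 and 734 bp. At the remaining pair the 40 h length was far below the 24 h length, with 1440 and 268 bp at chr13:44160947-44162386 (670 bp at 56 h) and 1421 and 548 bp at chr18:62336003-62337423 (none at 56 h).

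The density of peaks along the chromosomes was close between the 2 lists. Bins of 100 kb with at least 10 peaks in the 2 lists together numbered 2340. After multiplying 40 h numbers by 1.28, the ratio of the list lengths, 44 bins had at least 2-fold fewer peaks at 40 h (1.88%) and 11 at least 2-fold more (0.470%). The median log2 ratio was 0.09 (interquartile range -0.22 to 0.33), with 0.5 peaks added to each number. With the 24 h list cut to the length of the 40 h list, bins with 2-fold fewer and 2-fold more peaks numbered 16 and 14. The largest drops were on chromosome 9 from 55900001 to 56000000, with 16 peaks at 24 h and 5 at 40 h, and on chromosome 15 from 97500001 to 97600000, also with 16 and 5. The first held 11 peaks at 72 h and 24 at 120 h, with 6 in E2. The second held 15 peaks in E2, 1 at 72 h and 2 at 120 h, and was thus sparse in every list with 40 h or more without E2. On chromosome 15 from 99700001 to 99800000 the numbers were 10 at 24 h and 1 at 40 h, with 3 in E2, 1 at 72 h and 2 at 120 h.

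Among bins with more peaks at 40 h than the scaling gives, the largest difference was on chromosome 16 from 33700001 to 33800000. The 24, 40, 56 and 72 h lists held 29, 34, 21 and 30 peaks in this stretch, against 12 in E2 and 7 at 120 h, and the covered length was 20165, 16673, 10688 and 13406 bp against 3025 and 2160 bp. It thus held more peaks and more covered length in all 4 restored populations than in the E2 or the 120 h population. The difference between 24 and 40 h was below 2-fold here, as in the other 4 bins with the largest rise. On chromosome 16 from 22600001 to 22700000 the numbers were 7 in E2, 11 at 24 h, 16 at 40 h and at 72 h, and 29 at 120 h.

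**Figure D5:**
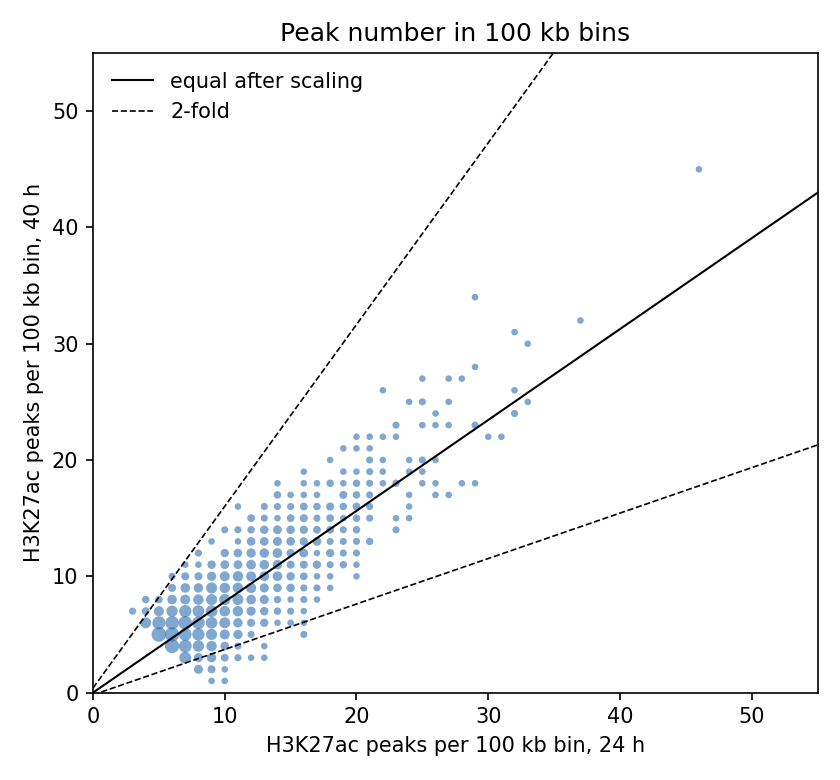
Number of H3K27ac peaks per 100 kb bin at 24 h (x axis) and at 40 h (y axis) for 2340 bins, with point area growing with the number of bins at that pair of values. The solid line marks equal numbers after scaling by 1.28 and the dashed lines a 2-fold difference. Most points lie between the dashed lines, and 44 bins lie beyond the lower one and 11 beyond the upper one.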

How the data were processed

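ChIP-seq peak lists of ER-Hoxa9-Lys-GFP cells were used: 6 for H3K27ac and 5 for H3K27me3, and the 24 h and 40 h lists of H3K4me3. Samples were grouped by their titles. Per the labels' protocols, 500 ug of chromatin was used per histone ChIP. The deposited files give the chromosome, start and end of each peak with no score, so their unit is coordinates (other). Bowtie2 2.0, BWA and MACS2 2.0 are named, with the builds mm9 and mm10, per the submitters' processing notes. Which belonged to which file, the threshold, the depth, the use of inputs and any pooling are not given in the sources used here. Without a score to use, peaks were ranked by width.

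H3K27ac peaks ran to 196958111 on chromosome 1 and passed the last gene of the GRCm38.p6 table on 8 (24 h) and 9 (40 h) of 20 chromosomes. Within 1 kb of a gene end of that table lay 13.7% of 24 h peaks, and 12.3% after a shift by 100 kb (H3K4me3 68.1% and 14.4%). The lists were treated as mm9, so no gene is named and no sequence printed, and H3K4me3 was compared within itself.

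Chromosomes 1 to 19 and X were used. Overlaps, covered lengths, bins and intervals were computed in Python 3.11.15 (numpy 2.4.6, pandas 2.3.3, scipy 1.17.1) with functions tested on simulated intervals. Loci are peaks of the lists compared, joined where they overlap. Regions were named by rule: the 8 widest unshared peaks per list, the 6 widest loci per ordered pattern, the 6 shared loci per direction with the largest difference in covered length, and the 5 bins per direction with the largest scaled difference. Of these, the examples printed were chosen after their values were seen, and the restored-only loci were picked in the same way. The comparison and its rules were chosen with earlier results of these data known. Alternatives were 50% overlap of the shorter peak, sharing within 1 kb, equal list lengths, peaks above the median width, merging within 1 kb, 500 kb bins and covered length per bin. Shortening the 24 h list alone was added after seeing the data.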

Additional observations from a re-analysis of the deposited data

How the results depend on the processing

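Counts and shares depended on which peaks were kept. Of the 45 values recomputed, those with a sign kept it, but counts and H3K27me3 shares have no sign to reverse. The ratios for E2 peaks absent at 120 h and 120 h peaks absent in E2 were not among the 45. Their order was lost at equal length (1.52 and 1.56, against 4.66 and 3.70 in the full lists). Of the 45 values, 19 stayed within 1.5 times (counts) or within the 95% interval (other values). Counting peaks within 1 kb as shared left 5924 unshared peaks at 24 h and 1079 at 40 h, raised the ordered gains to 471, and gave 6.28 points (24 h minus 40 h) for 120 h peaks absent in E2. Peaks above the median width left 6248 and 1905 unshared peaks, 849 ordered losses and 179 gains, and 12.98 points for E2 peaks absent at 120 h. With every list at most 28791 peaks long, or with only the 24 h list shortened to that length, 6978 and 5408 peaks were unshared. The median log2 ratio at shared loci was then -0.20. The cut keeps the widest 24 h peaks and the whole 40 h list. It thus favours a lower ratio and is no check on the narrowing. Bins of 100 kb with at least 2-fold fewer peaks at 40 h numbered 16, and those with at least 2-fold more 14, against 44 and 11 in the full lists. In these 2 settings the difference was 4.02 and 5.54 points for E2 peaks absent at 120 h and 1.98 and 1.33 points for 120 h peaks absent in E2. With only the 24 h list shortened there were 989 ordered losses and 506 gains. Merging peaks within 1 kb gave a log2 ratio of -0.33, and bins of 500 kb gave 29 with fewer and 4 with more peaks. The lists hold no read counts, so a weak peak and an absent one cannot be told apart. No paired analysis was possible because each condition had 1 library.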
